A study of Mus musculus with 2 samples.

Results

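Netrins, repulsive guidance molecules (RGMs) and their receptors were compared between the internal and external carotid arteries of the mouse embryo. The 10 genes were chosen by name, and every probe set that the array annotation gives to them was read. They are the ligands Ntn1, Ntn4, Rgma and Rgmb, the receptors Dcc and Neo1, and the Unc5 receptors Unc5a, Unc5b, Unc5c and Unc5d. They were read by 25 of the 45037 non-control probe sets and make up 10 of the 18193 genes that the arrays represent by name. One pool held internal and the other external carotid arteries, microdissected from ICR mice at E13.5 and pooled from 22 embryos, per the design text. Neither group was treated, the labels give no genotype beyond the strain, and each group was a single pool read on 1 array with no replicate. The series concerns endothelin and how axons of the superior cervical ganglion, which grow along both vessels, find their way, so the comparison asks which guidance genes differ between the branches.

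Netrins are secreted relatives of laminins. Netrin-1 can attract growing axons through the receptor Dcc and repel them through Unc5 receptors, alone or together with Dcc, and Unc5b is also a receptor of arterial endothelium that restrains vessel sprouting. RGMs are anchored to the cell surface, bind neogenin (the product of Neo1, a close relative of Dcc) and act as co-receptors for bone morphogenetic proteins (BMPs).

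Signals are the deposited linear intensities of each probe set. The median signal of the non-control probe sets served as each array's floor, 47.5 for the internal and 52.3 for the external carotid array. A ratio was taken where both signals reached the floor, and only a minimum fold, given with the words at least, where 1 side was under it. Log2 ratios are external over internal carotid, so a negative value means a higher signal in the internal carotid pool. Of several probe sets, the one with the highest geometric mean over both arrays stands for the gene. The only error available was technical: log2 ratios of different probe sets of one gene had a pooled standard deviation of 0.34, or 1.26-fold, over 4315 genes. It does not cover differences between embryos, dissections or amplifications, no p-value is given, and in tissue RNA fewer cells of a type and less RNA per cell cannot be told apart.

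No gene of the set reached a 2-fold difference between the vessels by the probe set that represents it. A ratio or bound was obtained for 8 of the 10, 4 above 0 and 4 below, while Unc5a and Unc5d lay under both floors. Of all 12408 genes with a ratio or bound, 3.58% passed 2-fold in either direction, so a count of 0 among 8 is near that background. The median log2 ratio of the 8 genes was 0.08, against 0.06 over all genes, and it was -0.01 after quantile normalization or loess and -0.21 when a gene was summarised by the median of its probe sets. That setting, the median over probe sets, took the median signal on each array separately, so a ratio can mix different probe sets. In size, 5 of the 8 values were smaller than the technical spread, as were 63.8% of all genes with a ratio or bound. Both counts include bounds, and 1 of the 5 was the bound of Ntn1. A bound is a minimum, so a bound under the spread does not show that the difference was. The 3 members that exceeded the technical spread were Unc5c at -0.85, Dcc at 0.59 and Ntn4 at 0.38. Which members exceed it depends on scaling: Ntn4 was under it after centring (0.32), quantile normalization (0.29) and loess (0.27), while Neo1, at 0.20 as deposited, was over it after quantile normalization (0.41) and loess (0.43). At 1.5-fold, a threshold that 14.6% of all genes passed, Unc5c and Dcc would be called, Dcc at only 1.51-fold. The Dcc call would be lost after centring (log2 ratio 0.54), quantile normalization (0.49) and loess (0.47), with a pseudocount at the floor (0.42) and with the median over probe sets (a bound of 0.14).

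**Figure D1:**
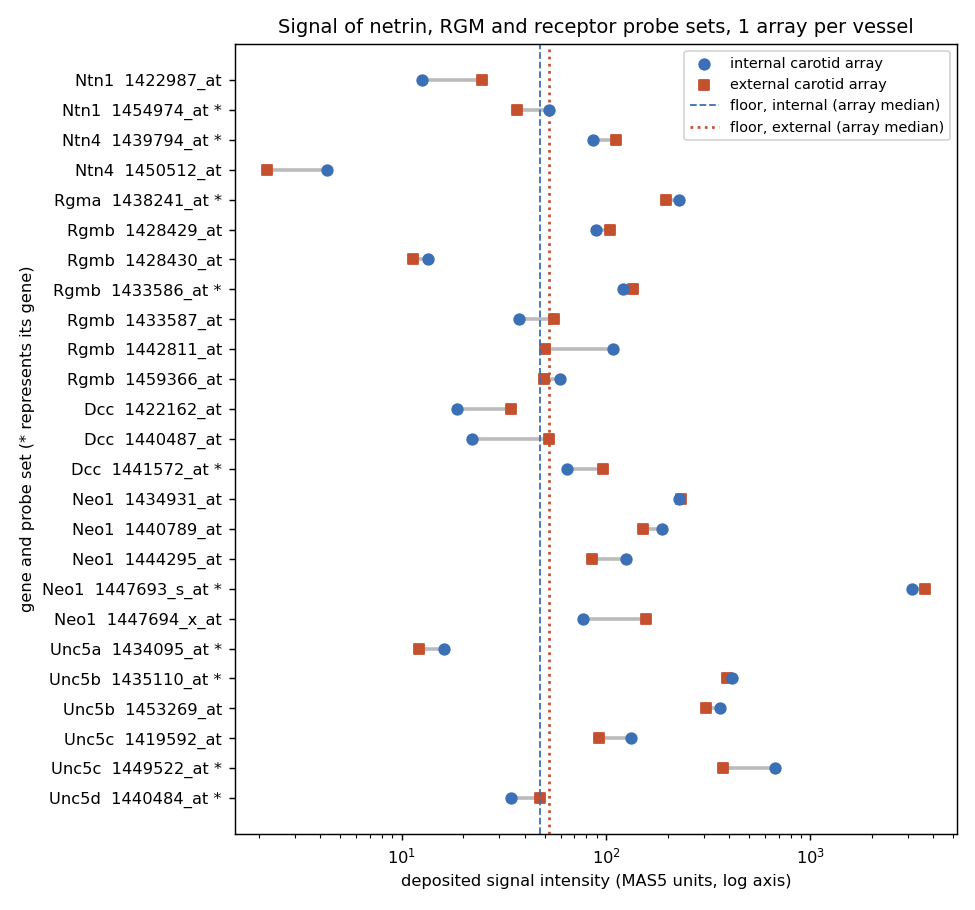
Deposited signal of each of the 25 member probe sets (rows) on the internal carotid array (circles) and the external carotid array (squares), on a log axis in MAS5 units. Vertical lines mark the floors of 47.5 and 52.3, and an asterisk marks the probe set that represents its gene; 6 probe sets lie under both floors, including the only ones for Unc5a and Unc5d, and both Unc5c probe sets have the higher signal in the internal carotid pool.

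Among the ligands, Ntn1 was close to or under the floors in both pools. Ntn1 encodes netrin-1, the founding axon guidance cue of the family. Its brighter probe set, 1454974_at, read 52.8 in the internal and 36.8 in the external carotid pool, so only the internal signal reached its floor, and the bound of at least 1.01-fold carries almost no information. The other, 1422987_at, read 12.5 and 24.8, under both floors and with the external signal the higher of the pair. The Ntn1 readings thus pointed in opposite directions at signals where order is not reliable.

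Ntn4 encodes netrin-4, a basement membrane protein that binds laminins and is made by blood vessels among other tissues. Probe set 1439794_at read 86.5 in the internal and 112 in the external carotid pool, 1.30-fold higher in the external pool (log2 ratio 0.38), just above the technical spread of 0.34. The remaining Ntn4 probe set, 1450512_at, read 4.3 and 2.2 and gave no ratio, so the value rests on a single reading. Of all genes, 19.1% had a ratio at least as high.

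Rgma was read by 1 probe set, 1438241_at, at 227 in the internal and 196 in the external carotid pool. This 1.16-fold difference, a log2 ratio of -0.21, was under the technical spread. RGMa is the RGM best known for repelling axons through neogenin.

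Rgmb encodes the RGM also called Dragon, a BMP co-receptor found in the nervous system and elsewhere, and had 6 probe sets that did not point one way. The representative, 1433586_at, read 121 in the internal and 136 in the external carotid pool (log2 ratio 0.17), and 1428429_at read 89.3 and 105 (log2 ratio 0.23). Both were slightly higher in the external pool and under the technical spread. Probe set 1442811_at read 108 in the internal pool and 50.2 in the external pool, where it was under the floor, for a bound of at least 2.07-fold higher in the internal pool. A further pair had bounds of opposite direction, favouring the external pool by at least 1.17-fold for 1433587_at (37.6 internal, 55.4 external) and the internal pool by at least 1.14-fold for 1459366_at (59.8 internal, 49.6 external). The sixth, 1428430_at, was under both floors at 13.4 and 11.4. With the median over its probe sets, Rgmb had a log2 ratio of -0.50 in place of 0.17. The median signals of the arrays came from different probe sets, so -0.50 is not the ratio of any probe set. The probe sets measured on both arrays had a median ratio of 0.20, while the bounds had both signs.

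**Figure D2:**
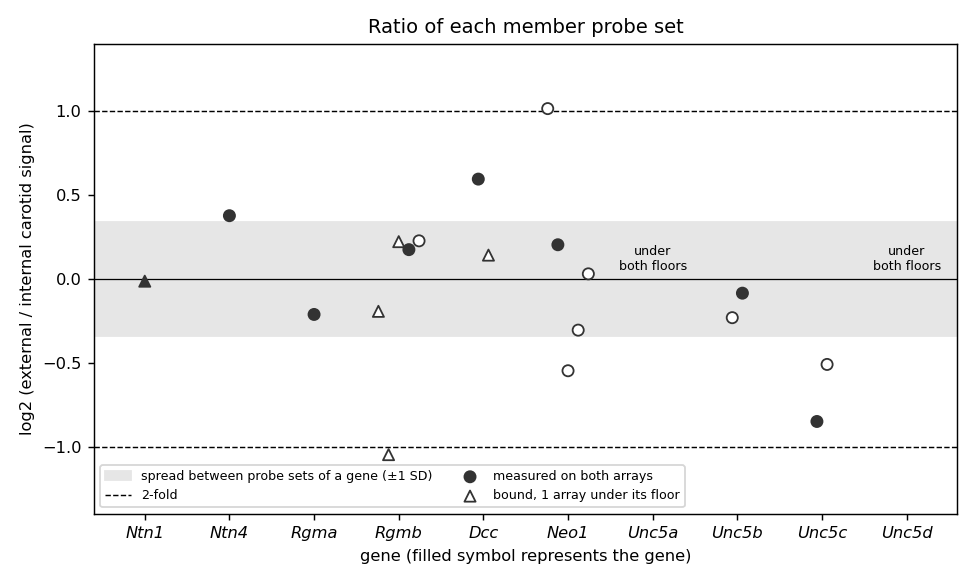
Log2 ratio of external over internal carotid signal for the 19 member probe sets with a ratio (circles) or a bound (triangles), by gene; filled symbols represent the gene, the grey band is 1 technical standard deviation (0.34) either side of 0 and dashed lines mark 2-fold. The 5 Neo1 ratios run from -0.55 to 1.01, both Unc5c ratios lie below the band, and Unc5a and Unc5d have no ratio.

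Dcc, the receptor through which netrin-1 attracts axons, was higher in the external carotid pool, at low signal. Probe set 1441572_at read 64.1 in the internal and 96.8 in the external pool, a 1.51-fold difference with a log2 ratio of 0.59. That was the highest of the 8 members with a value when each is read from its representative probe set. With the median over probe sets, Dcc and Ntn4 had only bounds, of 0.14 and 0.27, which cannot be ranked. Of all genes, 8.82% had a ratio at or above 0.59. Probe set 1440487_at read 22.1 in the internal pool, under the floor, and 52.4 in the external pool, just above it, for a bound of at least 1.10-fold. The third, 1422162_at, was under both floors at 18.7 and 34.1. All 3 Dcc readings were higher in the external pool, but only 1 stood above the floor on both arrays, and probe sets of that brightness had a median log2 ratio of 0.14. Dcc is made by neurons, and the 15 general neuronal markers with a value were all higher in that pool, at a median log2 ratio of 1.80; the part of neuronal RNA in the Dcc value was not tested.

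Neo1 encodes neogenin, the receptor that RGMs share, and its 5 probe sets disagreed. The representative, 1447693_s_at, read 3146 in the internal and 3622 in the external carotid pool, a log2 ratio of 0.20. A second probe set annotated to the same transcript record, 1447694_x_at, read 77.3 and 156, which is 2.02-fold higher in the external pool. The name endings of both probe sets mark them as open to cross-hybridisation, so the representative reading may be affected too, which was not tested. Of the others, 1434931_at read 228 and 233 (log2 ratio 0.03), 1440789_at read 187 and 151 (-0.31) and 1444295_at read 125 and 85.8 (-0.55). Of these, 3 readings were above 0 and the remaining pair below, over a range of 1.56 on the log2 scale. Among 118 genes with 5 measured probe sets the median range was 0.68, and 4 of them, Neo1 included, had a range of at least 1.56, while 91 had readings of both signs. The Neo1 ratio was above 0 under 9 of the 10 ways of processing, up to 0.41 after quantile normalization and 0.43 after loess. It was 0.03 without probe sets open to cross-hybridisation and -0.26 with the median over probe sets. That -0.26 sets the external signal of 1447694_x_at against the internal signal of 1440789_at, so it is not the ratio of any probe set. The median of the 5 Neo1 ratios was 0.03.

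By representative probe set, Unc5c had the largest difference of the 8 genes with a value, with a higher signal in the internal carotid pool. Single other probe sets of Rgmb (a bound of -1.05) and Neo1 (1.01) differed by more. Unc5c is a repulsive netrin receptor known from neuron and axon migration. Probe set 1449522_at read 674 in the internal and 374 in the external pool, 1.80-fold higher in the internal pool with a log2 ratio of -0.85. Probe set 1419592_at read 132 and 92.7, a log2 ratio of -0.51. Both differences exceeded the technical spread of 0.34 and had the same sign, and neither reached 2-fold. Of all genes, 2.35% had a ratio as low as -0.85 or lower. In a count made after the Unc5c values were seen, 37 of 2778 genes with 2 measured probe sets (1.33%), Unc5c included, had both at or below -0.51. The Unc5c ratio kept its sign under all 10 ways of processing, between -0.90 and -0.76. The median of all probe sets of similar brightness was -0.02.

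Several marker lists also stood higher in the internal carotid pool, the pool with the higher Unc5c signal. Skeletal muscle markers had a median log2 ratio of -2.33, macrophage and leukocyte markers of -0.52, and fibroblast markers of -0.29, the last above 0 after quantile normalization or loess. The part of these cells in the Unc5c value was not tested.

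Unc5b, the Unc5 receptor of arterial endothelium, was near equal in the vessels. Probe set 1435110_at read 414 in the internal and 390 in the external carotid pool (log2 ratio -0.09), and 1453269_at read 362 and 308 (-0.23). Both were slightly higher in the internal pool and under the technical spread. In the same arrays 8 of 9 arterial endothelial markers with a value were above 0, with a median log2 ratio of 0.54, led by the Notch receptor gene Notch4 at 0.99; the lowest was Nrp1, a co-receptor for semaphorins and VEGF, at -0.46, which was above 0 under 1 of the 10 ways of processing. The Unc5b ratio was between -0.15 and -0.06 under all 10 ways of processing.

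Unc5a and Unc5d, both known mainly from the nervous system, were not measurable above the floors. Unc5a read 16.1 in the internal and 12.2 in the external carotid pool on 1434095_at, and Unc5d read 34.4 and 47.3 on 1440484_at. Each has 1 probe set, and 31.8% of all represented genes likewise had no fold. A signal under the floor does not show that a gene was not expressed.

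Relatives of the members outside the 10 genes were read from lists of the pathway. Ntn3, another netrin, read 64.2 in the internal and 76.9 in the external carotid pool (log2 ratio 0.26), and Ntn5 was under both floors at 25.6 and 24.3. Of the netrin-Gs, membrane-anchored relatives that do not bind Dcc or Unc5, Ntng1 read 292 and 311 (0.09) and Ntng2 was under both floors at 10.1 and 14.7. Hjv, the RGM of skeletal muscle and liver that regulates iron uptake, was the one relative past 2-fold.

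Hjv read 294 in the internal and 84.3 in the external carotid pool, 3.49-fold higher in the internal pool. Its other probe set read 111 and 23.7, a bound of at least 2.11-fold in the same direction. When the floor was raised to the 75th percentile, the representative gave a bound of at least 1.92-fold. Without probe sets with names ending in _a_at, _s_at or _x_at no Hjv value was left. Skeletal muscle markers were also higher there: 14 of 16 were at least 2-fold higher in the internal pool, from Ckm, a creatine kinase gene, at -0.60 to the sarcomere gene Myom2 at -3.38, with a summed signal of 21328 in the internal and 4067 in the external pool. The part of muscle RNA in the Hjv value was not tested.

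Across the 6 pathway lists, 65 genes outside the members had a value, and 1 passed 2-fold in each direction, against 2.10% of all genes higher in the external and 1.47% higher in the internal carotid pool. Their median log2 ratio was 0.10, with 40 above 0 and 25 below, where 56.1% of all genes were above 0. Of the other ligands and co-receptors, 11 of 14 had a value, with a median of 0.35. The highest was Lrrc4c, which encodes a netrin-G1 ligand at synapses, at 54.5 in the internal and 124 in the external pool, or 2.28-fold; its internal signal stood near the floor, its other 2 probe sets were under both floors, and it was 1.73-fold with a pseudocount at the floor. The lowest was Dscaml1, a relative of the netrin receptor Dscam, at 94.4 internal and 17.3 external, a bound of at least 1.80-fold higher in the internal pool. Cbln1, a secreted synaptic organiser, was 1.42-fold higher in the external pool, but 2.15-fold with the median over its probe sets and 2.21-fold without the one open to cross-hybridisation.

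The other binding partners with a ratio lay within 2-fold by their representative probe sets. Dscam read 80 in the internal and 95.4 in the external pool (log2 ratio 0.25), and Draxin, a secreted protein that binds Dcc and netrin-1, read 49.6 and 66 (0.41). The Flrt proteins, adhesion molecules that bind Unc5 receptors, had log2 ratios of 0.35 for Flrt1, -0.34 for Flrt2 and 0.50 for Flrt3, with -0.70 at a further Flrt3 probe set. Mcam, an adhesion molecule of vessel walls, had a log2 ratio of 0.79. The latrophilin Adgrl3, a partner of Flrt proteins, was at -0.64 by its representative and above 0 with the median over its probe sets. Its other probe sets measured on both arrays were all higher in the external pool, from 0.13 to 0.59. A further Adgrl3 probe set had a bound of -0.54.

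Inside the cell, 23 of 28 listed effectors of Dcc and neogenin had a value, none past 2-fold by its representative probe set, with a median log2 ratio of 0.00, below 0 after centring and under a 75th percentile floor. The highest was the transcriptional cofactor gene Lmo4 at 0.81 and the lowest the actin regulator gene Enah at -0.45. Further probe sets of 3 effectors were past 2-fold, all higher in the external pool. The share of such probe sets over all genes was not counted, so neither the number nor the direction is read as a result. The 3 genes are named after their values were seen. For the microtubule-associated protein gene Map1b such a probe set read 58.8 in the internal and 150 in the external pool (2.55-fold, against 1.21-fold for its representative). For Pitpna, a phosphatidylinositol transfer protein gene, it read 159 and 337 (2.11-fold, against a representative log2 ratio of -0.06), and for the small GTPase gene Cdc42, 59.9 and 121 (2.02-fold, against 1.05-fold). Map1b was past 2-fold with the median over probe sets, and Cdc42 without probe sets with names ending in _a_at, _s_at or _x_at. All 6 measured partners of Unc5 receptors were within 2-fold, from -0.41 for the kinase gene Prkca to 0.44 for the phosphatase gene Ptpn11; Dapk1, the death-associated kinase that acts below Unc5b, was at -0.37. Of the BMP genes through which RGMs act, 16 of 17 had a value and all lay within 2-fold, with a median of 0.18. Bmp4 was highest at 0.77, with 269 in the internal and 460 in the external pool, and Smad1, a transducer of BMP signals, lowest at -0.43. The 6 measured genes that cleave the receptors or RGMs ran from -0.52 for Psen2, a catalytic subunit of gamma-secretase, to 0.33 for the protease gene Mbtps1. Psen2 and Ptpn11 each changed sign under 1 of the 10 ways of processing.

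**Figure D3:**
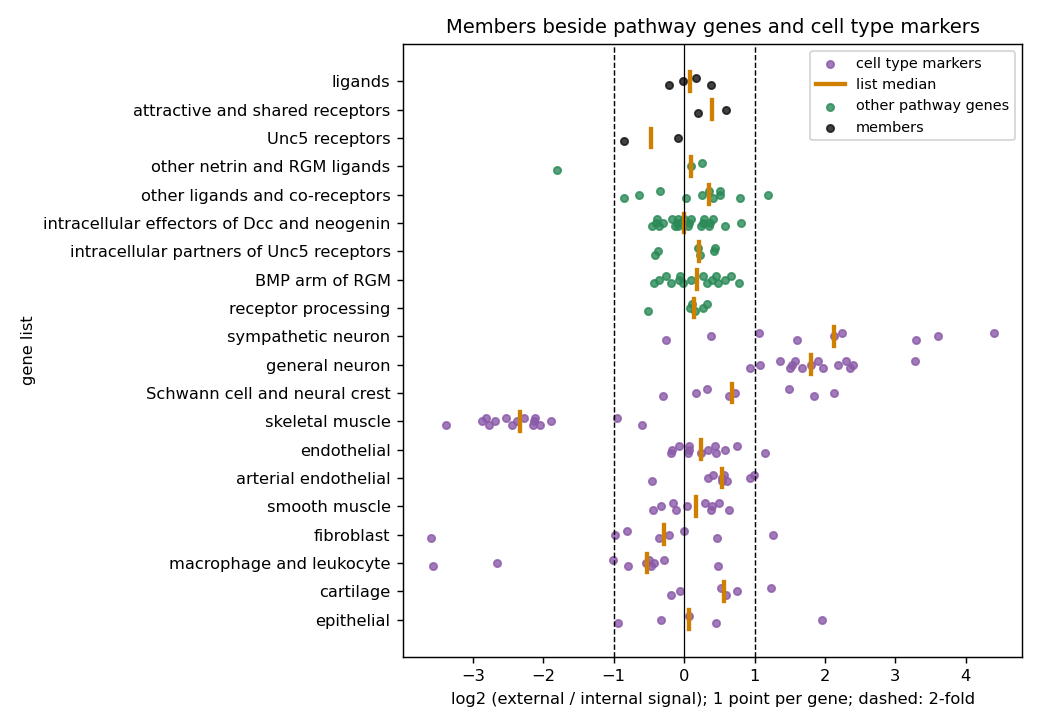
Log2 ratio of external over internal carotid signal for each gene with a ratio or bound, by list: members by role (black), other pathway genes (green) and cell type markers (purple), with the list median as an orange bar and dashed lines at 2-fold. Members lie between -0.85 and 0.59, while general neuronal markers have a median of 1.80 and skeletal muscle markers of -2.33.

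The dissected tissue carried the markers of a vessel wall and of other cells. Smooth muscle markers were measured for 10 of 10 genes, with Acta2, the smooth muscle actin gene, at 9482 in the internal and 6952 in the external pool, and endothelial markers for 13 of 14; Pecam1 and the arterial connexin gene Gja5 were under both floors. The smooth muscle and endothelial medians were 0.17 and 0.24, the former -0.04 under a 75th percentile floor. Smooth muscle markers ran from -0.45 for Acta2 to 0.64 for Myocd, and endothelial markers from -0.19 for Emcn to 1.15 for Cd34. Summed signals of sympathetic neuron markers were 2072 in the internal and 6855 in the external pool, with 7 of 9 past 2-fold toward the external pool, from Gata2 at -0.25 to the noradrenaline-making enzyme Dbh at 4.40. General neuronal markers summed to 3327 and 13670, and ran from 0.93 for Syt1 to 3.28 for Ina. Schwann cell and neural crest markers, with a median of 0.68, summed to 2353 and 3499, and ran from -0.30 for Erbb3 to 2.12 for Tfap2b. Fibroblast markers ran from -3.59 for Dpt to 1.26 for Col14a1, and macrophage and leukocyte markers from -3.57 for S100a8 to a bound of 0.48 for Ptprc. Cartilage markers had a median of 0.56, from -0.18 for Col9a1 to 1.23 for Sox5. Epithelial markers had a median of 0.07, from -0.94 for Krt14 to 1.96 for Epcam. Both medians were below 0 without probe sets with names ending in _a_at, _s_at or _x_at, which left 4 cartilage and 2 epithelial markers with a value. Also under both floors, or with no fold, were Slc18a2, Gata3, Snap25, Cdh19, Sox9, Matn1, Cdh1, Cldn6 and Foxa2. The part of these cells in the members' ratios was not tested. Split into 10 groups of equal size by signal, probe sets had median ratios (log2) of 0.17 in the dimmest group and -0.19 in the brightest, the group that holds the representative Neo1 probe set.

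**Figure D4:**
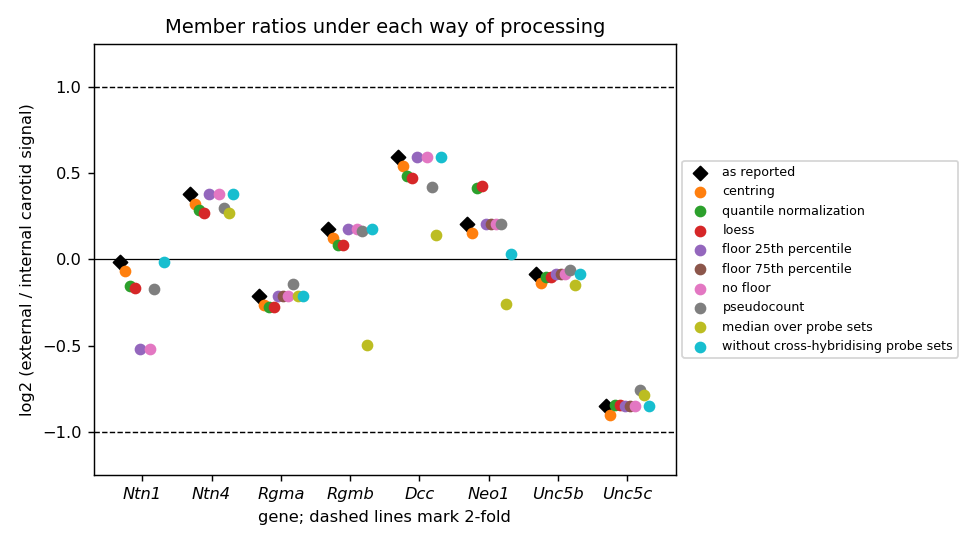
Log2 ratio of external over internal carotid signal for the 8 members with a value, as reported (black diamonds) and under 9 other ways of processing (coloured circles); dashed lines mark 2-fold. Unc5c stays between -0.90 and -0.76 and Unc5b between -0.15 and -0.06. Neo1 and Rgmb lie below 0 with the median over probe sets, where the median signals of the arrays came from different probe sets.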

How the data were processed

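RNA of 2 pools was measured on 2 Affymetrix mouse arrays. Per the labels' protocols, total RNA was amplified over a pair of rounds from an oligo-dT primer, which favours the ends of transcripts next to the poly-A tail. The authors deposited a linear signal intensity for each probe set; the submitters' processing notes name GCOS 1.4 and MAS5. Detection calls were not used here. Both arrays had a 2% trimmed mean of 150 and were used as deposited. The number of arrays limits the precision.

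Gene names came from the platform's annotation and were brought up to date through RefSeq gene numbers (GRCm38.p6, names only); all 25 member probe sets matched, and 34945 of 45037 probe sets had 1 gene. Of the 78 pathway genes 71 were represented, and the other 7 were not used here. Floors, ratios and bounds are as described above. The members, pathway lists and marker lists were chosen with earlier results of these data known. Named genes are all members, their listed relatives, and the highest, lowest and 2-fold genes of each list; other genes named were added after their values were seen. The steps were tested on simulated data with changes past 2-fold in bright genes and noise under the technical spread. That test does not cover ratios under 2-fold or dim genes, which most members have or are. Alternatives were centring, quantile normalization, loess, other floors, a pseudocount, and 1.5-fold and 3-fold thresholds. Others were the median signal over probe sets on each array, and leaving out probe sets with names ending in _a_at, _s_at or _x_at. Python 3.11.15, numpy 2.4.6, pandas 2.3.3 and statsmodels 0.14.6 were used.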

Additional observations from a re-analysis of the deposited data

How the results depend on the processing

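No paired analysis was possible because each group has 1 array. No member passed 2-fold under any of the 9 alternative ways of processing or at 3-fold, and 2 did at 1.5-fold. Of 67 alternative values of single members, with bounds taken as values, 62 lay within the technical spread of the reported value and 5 did not. Ntn1 was at -0.52 under a 25th percentile floor or none. With the median over probe sets Dcc was at a bound of 0.14, Neo1 at -0.26 and Rgmb at -0.50. A bound is a minimum, so the reported Ntn1 bound does not conflict with -0.52, nor the Dcc bound with the reported 0.59. Of the 5, only the Neo1 and Rgmb values set a ratio against a ratio. The median over members ranged from -0.21 to 0.17. Pathway genes past 2-fold numbered 4 in place of 2 under the same 2 floor settings, where Dscaml1 and Lrrc4 were added. Over all genes the number rose as well, so Dscaml1 and Lrrc4 are not read as a gain. As reported, 261 of 12408 genes passed toward the external pool and 183 toward the internal pool. Under the 25th percentile floor these were 761 and 474 of 15863, and with no floor 1490 and 1088 of 18193. Under a 75th percentile floor the pathway count was 0, where only 50 pathway genes had a value. The count was 3 after loess, with the median over probe sets and without probe sets with names ending in _a_at, _s_at or _x_at. Dscaml1 joined after loess, and Cbln1 and Map1b replaced Lrrc4c with the median. Cbln1 and Cdc42 replaced Hjv without the probe sets of those name endings. With the pseudocount the count was 2, with Dscaml1 in place of Lrrc4c. Low signal limits the dim members: Ntn1, Ntn4, Rgmb and Dcc had no value under the 75th percentile floor, Unc5a had one only with no floor or the pseudocount, and Unc5d also under the 25th percentile floor.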
